A study of Mus musculus with 6 samples.

Results

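The cytosolic ribosomal protein genes encode the proteins of the large and small subunits of the ribosome that translates nuclear mRNAs. They were taken as every row of the expression table whose symbol is Rpl or Rps followed by a number, with or without a final a, x or l, together with Rpsa, Rplp0, Rplp1 and Rplp2. This gave 80 of 17001 rows, 49 for the large and 31 for the small subunit. Rps3a1, Fau and Rack1, which also encode proteins of the cytosolic ribosome, have other kinds of symbol and were kept apart, and Rpl10l and Rps4l had no row.

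RNA was sequenced from cultured calvarial preosteoblasts, the precursors of bone-forming osteoblasts, of 3-day-old mice. There were 3 control libraries from Nell2 fx/fx mice and 3 libraries from Col1-cre;Nell2 fx/fx (cKO) mice, in which Cre under a Col1a1 promoter fragment is meant to remove the floxed part of Nell2 in the osteoblast lineage. Both groups therefore carried the floxed alleles, only the cKO group carried Cre, and control mice with Cre alone were not among the libraries. Nothing in the labels says that the libraries of a group came from separate mice or cultures, so p-values measure only the spread between these libraries, which may be technical in part. Values are FPKM, fragments scaled to the length of the transcript and to the mapped fragments of the library, so levels of different genes are compared per length. Read depth cannot be read from this unit, and values therefore carry no counting interval.

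Ribosomal proteins assemble with ribosomal RNA in nearly fixed proportions, and surplus proteins are degraded. In vertebrates most of their mRNAs begin with a 5′ terminal oligopyrimidine (TOP) tract, a C at the first base followed by a run of C and T. Through this tract mTORC1, the growth-control kinase, and the RNA-binding protein LARP1 set how much of the mRNA is translated, so levels of mRNA and of protein need not move together. Bone-forming cells secrete large amounts of collagen and carry many ribosomes.

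A promoter was found in the RefSeq table of GRCm38.p6 for 60 of the 80 genes. Letters were read only on the strand that matches the mRNA. In 14 of these 60 (23.3%), a C at an annotated start was followed by at least 4 bases that were each C or T. The share was 3.01% among all 27025 genes with a promoter and 2.79% among 9180 other genes tested in these libraries, and none of 69 mitochondrial ribosomal protein genes had such a start. When the start was allowed to lie within 5 bases of the annotated one, the shares were 48.3% of the ribosomal protein genes, 24.6% of the mitochondrial ones and 21.2% of all genes. A match is a description of the letters at an annotated start, which may differ from the start used in these cells. The windows below hold 30 bases, 10 before and 20 from the annotated start, with the C and T run at the start in capitals. They are shown because they belong to genes whose levels are described further on, 5 with the run and 3 without it:
Rps6 (chr4:86857348-86857377, minus strand): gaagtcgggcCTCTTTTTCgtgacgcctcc
Rps15a (chr7:118116128-118116157, minus strand): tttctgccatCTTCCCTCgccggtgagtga
Rps18 (chr17:33955646-33955675, minus strand): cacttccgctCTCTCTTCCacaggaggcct
Rps27 (chr3:90213629-90213658, minus strand): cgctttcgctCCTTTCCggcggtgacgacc
Rpl38 (chr11:114668570-114668599, plus strand): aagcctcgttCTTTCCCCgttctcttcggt
Rps12 (chr10:23787190-23787219, minus strand): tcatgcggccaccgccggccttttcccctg
Rpl41 (chr10:128549149-128549178, minus strand): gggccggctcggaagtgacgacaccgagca
Rpl39l (chr16:10170218-10170247, plus strand): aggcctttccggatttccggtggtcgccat

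The targeted gene and the cell type were examined first. Nell2 FPKM was 3.17, 2.59 and 1.88 in control 1, 2 and 3 and 5.64, 1.61 and 5.74 in cKO 1, 2 and 3, a log2 fold change of 0.48 (SE 0.37, limma adjusted p = 0.591). It stayed above 0 but moved with single libraries, with 0.93 without cKO 2, 0.26 without cKO 1, 0.25 without cKO 3 and 0.11 without both libraries numbered 3. The whole-gene FPKM of the targeted gene thus did not go down with the cKO label. By qRT-PCR and western blotting, which are other measures, the paper reports the deletion of NELL2 in calvarial preosteoblasts of cKO mice. A whole-gene value mixes the floxed part with the remaining exons, and directions below follow the labels. Defining markers of the labelled cell type were present. Col1a1, the main bone collagen gene, lay between 8053 and 8578 FPKM and had the highest mean of the whole table. All 8 preosteoblast markers passed the filter, with a median log2 fold change of -0.20, and 1 was higher and 3 lower in cKO libraries at an unadjusted p under 0.05, as were 5.37% and 7.76% of all tested rows. Postn, a matrix protein gene, was at 599.7, 659 and 716 FPKM in control and 1055, 742 and 951 in cKO libraries (log2 fold change 0.46, adjusted p = 0.312). Sp7, a transcription factor of osteoblast commitment, was at 17.6, 16.9 and 13.2 FPKM in control and 12.4, 10.4 and 10.3 in cKO libraries (log2 fold change -0.48, adjusted p = 0.312).

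Several libraries stood apart from the rest of their group. The summed FPKM of 4 Y-linked genes was 54.7 in control 3, 52.8 in cKO 1 and 49.6 in cKO 3, and at most 0.29 in control 1, control 2 and cKO 2, so both groups held libraries with and without Y-linked RNA. The sum of 6 epithelial markers, led by Krt18, was 0.46, 3.61 and 13.4 in control 1, 2 and 3. It was 42.7, 36.9 and 18.2 in cKO 1, 2 and 3. Krt18 and Krt8 passed the filter and were higher in cKO libraries at an unadjusted p under 0.05, as were 5.37% of all tested rows. Epcam was at 0, 0.15 and 0.47 in control and 1.37, 1.58 and 1.21 in cKO libraries. Since Epcam passed the filter only through the cKO libraries, its test is not counted here. Of those that did not pass it, Cdh1 was at 0.09, 0.73 and 0.68 in control and 1.13, 1.06 and 0.89 in cKO libraries, and Krt5 and Krt14 were at 0 to 1.35 FPKM. The sum of 10 macrophage markers, led by Lyz2, ranged from 40.3 in control 2 to 109 in control 3, none of the 8 tested had an unadjusted p under 0.05, and the defining marker Ptprc was at most 0.18 FPKM. Hba-a1, a red cell gene, was at 0 in 5 libraries and at 0.20 in cKO 3. Control 3 and cKO 3 differed from the other 4 in Rpl34, as described below. The part of these differences in the ribosomal protein values was not tested, except for the fits with Ddx3y as a covariate and without single libraries. In RNA from whole cultures, fewer cells of a type and less RNA per cell cannot be told apart.

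The ribosomal protein mRNAs were among the most abundant of these cells. Together the 80 genes held 20.6%, 21.3% and 22.4% of the FPKM sum in control 1, 2 and 3 and 21.6%, 23.5% and 22.2% in cKO 1, 2 and 3. The mean share was 21.4% ± 0.931 in control and 22.4% ± 0.998 in cKO libraries (SD, n = 3), and the groups overlapped. The difference of 0.98 percentage points was close to 1 SD, and it lay between 0.44 and 1.48 points when single libraries were left out. Of the 100 rows with the highest mean FPKM, 57 were ribosomal protein genes, and 57 of the 80 had a mean of at least 1000 FPKM.

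**Figure D1:**
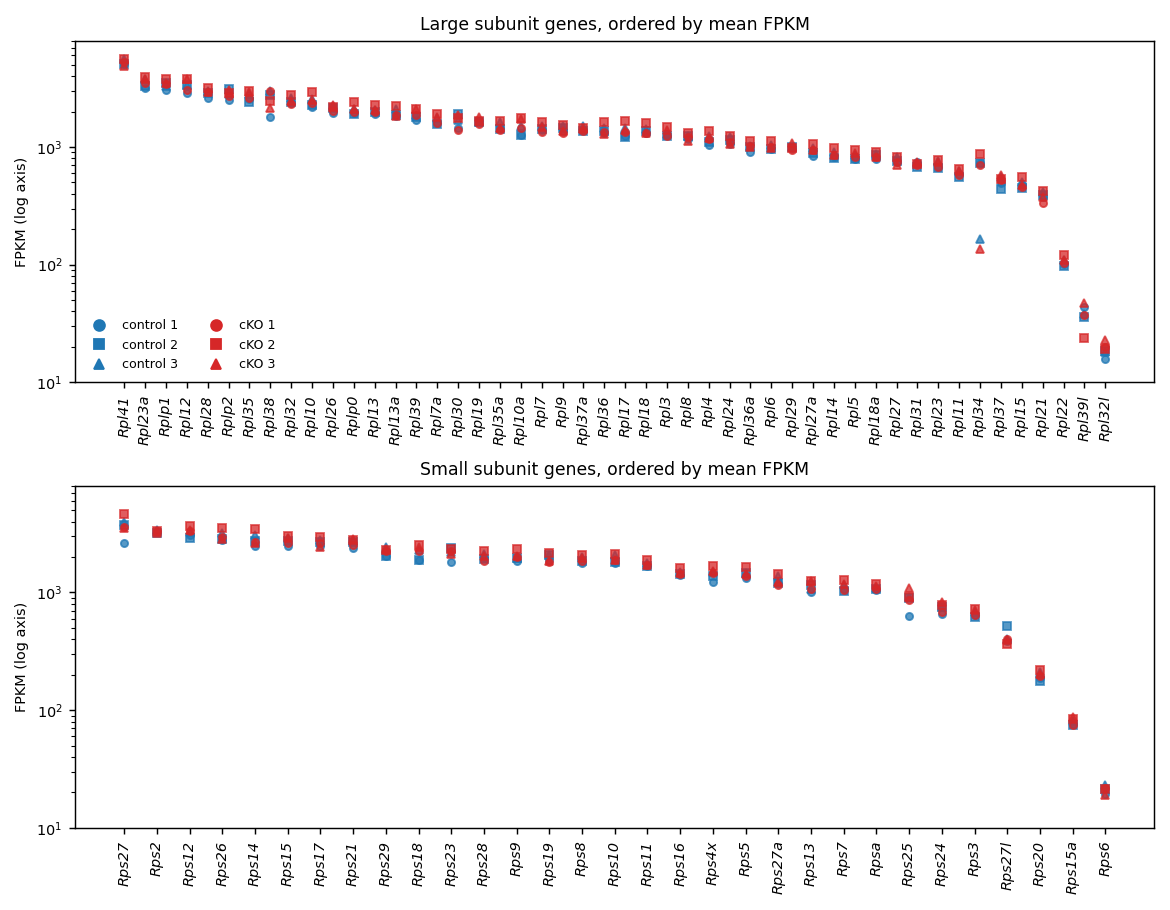
FPKM of the 79 tested ribosomal protein genes in each of the 6 libraries on a log axis, large subunit genes above and small subunit genes below, ordered by mean FPKM, with controls in blue, cKO in red and a marker shape per replicate number. Most genes form a shallow slope from a few times 1000 FPKM down to about 1000 with their 6 points close together, a few genes drop far below it (Rpl22, Rpl39l, Rpl32l, Rps20, Rps15a, Rps6), and Rpl34 is split between the libraries numbered 3 and the other 4.

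Within this set the levels per length differed widely. Rpl41, which encodes the smallest ribosomal protein, was the highest, at 5041, 5068 and 5544 FPKM in control and 5260.0, 5616 and 4841 in cKO libraries. Rps27, a zinc finger protein of the small subunit, followed at 2654, 3767 and 3966 in control and 3617, 4620.0 and 3506 in cKO libraries. Rpl23a, Rplp1 and Rpl12 came next with means of 3599, 3433 and 3360 FPKM. Of these neighbours in the order, the ranges over libraries overlapped for Rps27, Rpl23a, Rplp1 and Rpl12, while every library of Rpl41 was above every library of the other four. In each library the median gene of the small subunit was above that of the large subunit. The large subunit median was 1287, 1309 and 1458 FPKM in control and 1326, 1566 and 1378 in cKO libraries, and the small subunit median was 1770.0, 1817 and 1979.9 in control and 1824, 2101 and 1860.3 in cKO libraries.

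At the low end stood genes of different kinds. Rpl3l, which replaces Rpl3 in striated muscle, was listed at 0.07 FPKM in control 2 and at 0 elsewhere, and was not tested. Rpl32l lay between 15.8 and 22.7 FPKM and Rpl39l, a copy of Rpl39 used in male germ cells, between 23.8 and 47.6. Rps6, whose protein is the S6 kinase substrate that gave the kinase its name, was at 19.5, 21.3 and 23.2 FPKM in control and 21.9, 21.5 and 19.1 in cKO libraries, far below every other small subunit gene. Rps15a was at 76.1, 74.7 and 80.6 in control and 74.9, 84.8 and 88.1 in cKO libraries. Rpl22, an RNA-binding protein of the large subunit, and Rps20 had means of 107 and 199 FPKM. The ratio of the highest to the lowest library was 1.22 for Rps6, 1.18 for Rps15a, 1.24 for Rpl22, 1.24 for Rps20, 1.44 for Rpl32l and 2.0 for Rpl39l.

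Near-identical copies can take reads from a ribosomal protein gene or give reads to it, depending on how the authors counted, which the sources used here do not state. Copies were sought among GENCODE M21 transcripts, at 95% identity or more over at least 90% of the coding length. Of the 79 tested genes, 74 had at least 1 such copy. There were 553 copies in all, with a median of 5 and a maximum of 56 for Rpl21. Rps6 had 10 pseudogene copies and Rps15a 6, none with a row in the table. Rpl7a had 31 and averaged 1708 FPKM. Over the genes the number of copies and the mean FPKM had a Spearman correlation of 0.07 (79 genes, which share the 6 libraries). It was -0.12 for coding length and 0.37 for the GC content of the coding sequence. Only 10 genes had such a copy with a row of its own. The effect of the copies on the low values of Rps6 and Rps15a was not tested.

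Rpl34 showed the most divided values of the set. Its FPKM was 724, 737 and 165 in control 1, 2 and 3 and 709.6, 868 and 137 in cKO 1, 2 and 3, so both libraries numbered 3 were about 5-fold lower than the other 4 whatever their label. Rpl34-ps1, an annotated copy without introns, went the other way, at 1076, 1112 and 2346 in control and 1051, 1286 and 2163 in cKO libraries. Rpl34 made up 40.2%, 39.9%, 40.3% and 40.3% of the sum of both rows in control 1, control 2, cKO 1 and cKO 2, and 6.57% and 5.94% in control 3 and cKO 3. The sum of both rows was 1799.7, 1849.6 and 2511 FPKM in control and 1761, 2153 and 2299 in cKO libraries. Between the groups neither row differed beyond this spread, with log2 fold changes of -0.02 (SE 0.84) for Rpl34 and 0.02 (SE 0.37) for Rpl34-ps1 and adjusted p = 0.993 and 0.986 in limma. Without both libraries numbered 3 the log2 fold change of Rpl34 was 0.10.

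**Figure D2:**
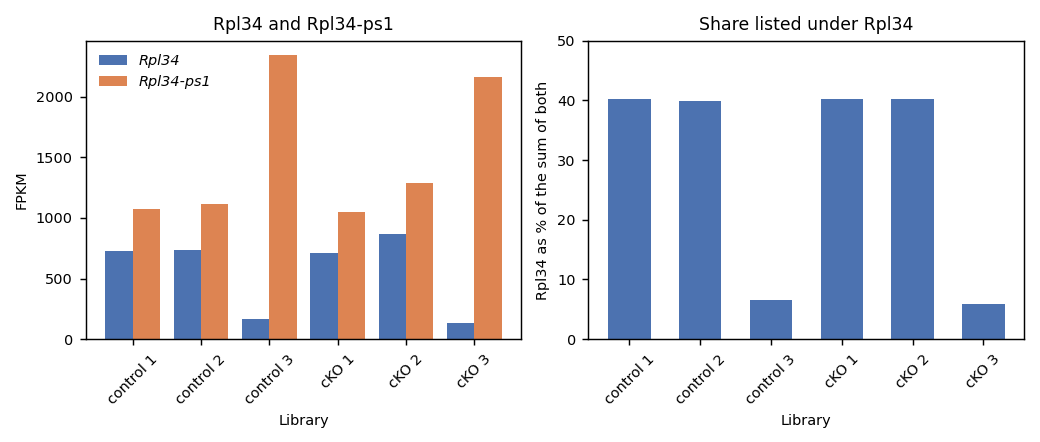
FPKM of Rpl34 and Rpl34-ps1 in each library (left, bars from 0) and Rpl34 as a percentage of the sum of both (right). The share is close to 40% in 4 libraries and 6.57% and 5.94% in control 3 and cKO 3.

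In GRCm38.p6 the RefSeq annotation places Rpl34 at chr3:130726827-130730398 on the minus strand and Rpl34-ps1 at chr6:71124589-71125001 on the plus strand. Their coding sequences in GENCODE M21 both have 354 bases, of which 352 are identical (99.4%). The differences from Rpl34 to Rpl34-ps1 are T132C and C318G, counted from the first base of the start codon, and only reads that cover one of these bases or a splice junction, or that reach outside the coding part, can tell the rows apart. The stretches around the differing base, coding bases 112 to 152 and 298 to 338, are given with that base in capitals:
Rpl34, base 132 (chr3:130729084, minus strand, exon 3 of 5): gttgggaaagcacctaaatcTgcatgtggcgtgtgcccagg
Rpl34-ps1, base 132 (chr6:71124741, plus strand): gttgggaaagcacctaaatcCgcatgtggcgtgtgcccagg
Rpl34, base 318 (chr3:130726911, minus strand, exon 5 of 5): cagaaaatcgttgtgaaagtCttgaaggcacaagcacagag
Rpl34-ps1, base 318 (chr6:71124927, plus strand): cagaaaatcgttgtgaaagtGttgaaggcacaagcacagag
FPKM values do not hold the reads, so which base the fragments of control 3 and cKO 3 carried could not be examined.

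Apart from Rpl34, the genes differed little between libraries. The highest library was less than 1.5 times the lowest for 74 of the 79 tested genes and less than 2 times for 77, and the median coefficient of variation was 7.62%. On the log2 scale the median SD over the 6 libraries was 0.11, as it was over all 11590 tested rows. The exceptions beside Rpl34 were Rpl39l, Rps27, Rps25 and Rpl38. Rpl38, known for its role in the translation of Hox mRNAs, was at 1797, 2744 and 2986 FPKM in control and 2999, 2453 and 2144 in cKO libraries. Rps25, used by viral internal ribosome entry sites, was at 636, 899 and 912 in control and 866, 915 and 1083 in cKO libraries. Control 1 was the lowest library for Rpl38, Rps25 and Rps27, and the groups overlapped for each of them.

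The genes of both subunits moved together from library to library. With each gene centred on its mean over 6 libraries, the median log2 value of the large subunit was -0.08, -0.04 and 0.05 in control 1, 2 and 3 and -0.04, 0.14 and 0.02 in cKO 1, 2 and 3. That of the small subunit was -0.11, -0.05 and 0.05 in control and -0.03, 0.13 and 0.01 in cKO libraries. cKO 2 was thus the highest for both subunits and control 1 the lowest, while control 3 was above cKO 1 and cKO 3. cKO 2 held the highest value of 56 of the 79 tested genes, and control 1 and control 2 the lowest of 36 and 22. The summed FPKM of small subunit genes was 0.719 to 0.741 times that of large subunit genes. The median log2 level of the large minus that of the small subunit was -0.46, -0.47 and -0.44 in control and -0.46, -0.42 and -0.43 in cKO libraries, with group means of -0.46 ± 0.016 and -0.44 ± 0.018 (SD, n = 3). These means differed by 0.02 between groups that overlapped, and by 0.012 to 0.030 with single libraries left out. Other measures went the other way. The large minus small difference of the centred medians averaged 0.0086 ± 0.017 in control and -0.00044 ± 0.012 in cKO libraries. The ratio of small to large sums averaged 0.729 ± 0.0099 in control and 0.735 ± 0.0063 in cKO libraries. The direction of the balance thus depended on the measure.

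**Figure D3:**
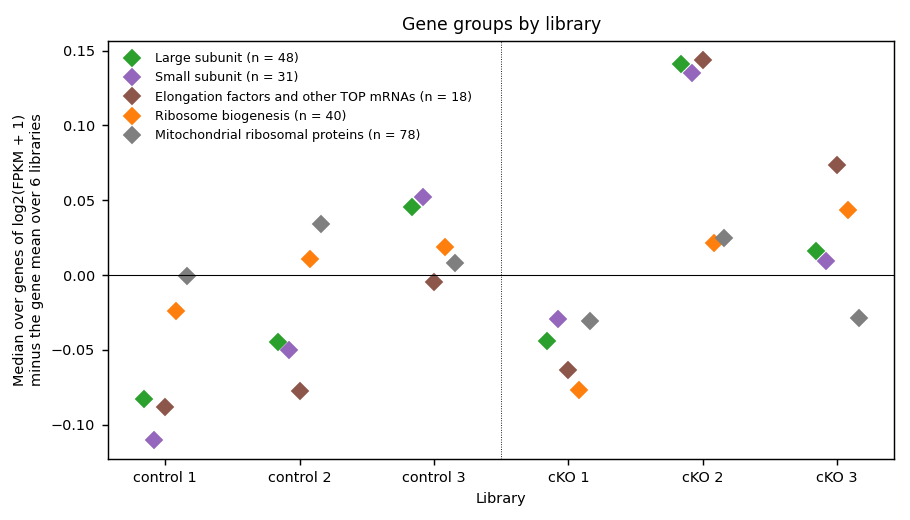
Median over the genes of each group of log2(FPKM + 1) minus the gene's mean over the 6 libraries, for each library, with controls left of the dotted line. Large and small subunit genes lie side by side in each library, with cKO 2 highest at 0.14 and 0.13 and control 1 lowest at -0.08 and -0.11. The elongation factors and other TOP mRNAs show the same highest library, and the ribosome biogenesis and mitochondrial ribosomal protein genes stay within 0.08 of their mean.

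As a description, the median Pearson correlation between 2 ribosomal protein genes over the 6 libraries was 0.64. It was 0.60 within the large subunit, 0.66 within the small subunit and 0.65 between subunits, against 0.03 between any 2 tested rows and 0.05 between the 835 rows with a mean of at least 100 FPKM. All of these points share the same libraries and the same scaling. For 66 genes the correlation with the median of the other ribosomal protein genes was over 0.5. It was below 0 for 3 genes, Rpl39l (-0.72), Rps27l (-0.44) and Rpl34 (-0.18).

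Between the groups, none of the 79 tested ribosomal protein genes passed the test. In limma's moderated test of log2(FPKM + 1) with Benjamini-Hochberg adjustment over 11590 rows, 0 had an adjusted p under 0.05, as did 0% of all tested rows, and the smallest adjusted p of a ribosomal protein gene was 0.342. The limma-trend fit also gave 0. At an unadjusted p under 0.05 there were 3 (2 of the large and 1 of the small subunit), 3.80% of the 79 against 13.1% of all tested rows. All 3 were higher in cKO libraries and none was lower, while 5.37% of all tested rows were higher and 7.76% lower at this p. The log2 fold change was above 0 for 67 of 79 genes, against 44.2% of all tested rows, with a median of 0.06 for the large subunit, 0.08 for the small subunit and -0.02 for all tested rows. Left-out libraries moved this tilt: without cKO 2 the log2 fold change was above 0 for 51 genes with a median of 0.04, and without control 3 for 74 with a median of 0.12. The values of the 2 groups did not overlap for 3 genes (Rpl32l, Rps12 and Rps9), all higher in cKO libraries, against 18.3% of all tested rows in either direction and 6.51% in this one.

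**Figure D4:**
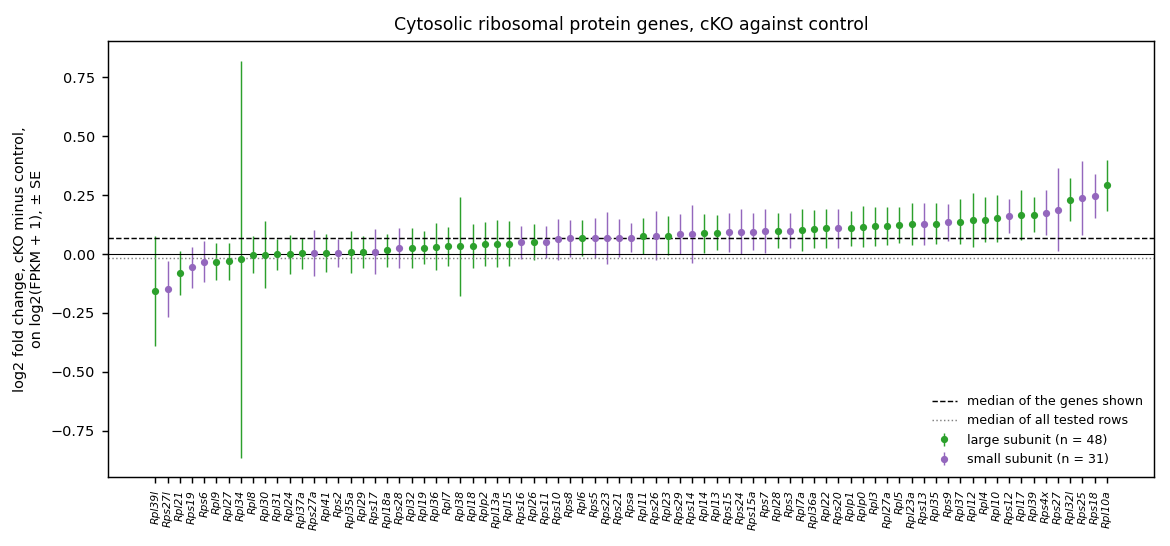
Log2 fold change (cKO minus control) on log2(FPKM + 1) with its SE for the 79 tested genes, ordered by size, large subunit in green and small subunit in purple, with the median of these genes (dashed, 0.07) and of all tested rows (dotted, -0.02). The values run from -0.16 for Rpl39l to 0.29 for Rpl10a, both subunits are spread over the whole order, and Rpl34 has by far the widest SE.

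The smallest p-value belonged to Rpl10a, a protein of the L1 stalk beside the exit site for tRNA. Its FPKM was 1263, 1262 and 1520.5 in control and 1463, 1773 and 1713 in cKO libraries, a log2 fold change of 0.29 (SE 0.11, adjusted p = 0.342). Control 3 was above cKO 1, so the groups overlapped. Rps18, a protein of the small subunit head, was at 1898, 1899 and 2282 in control and 2249.7, 2529 and 2417 in cKO libraries, a log2 fold change of 0.25 (SE 0.09, adjusted p = 0.348), with control 3 again inside the cKO range. Rpl32l, a row on chromosome 10 whose coding sequence is 97.2% identical to that of Rpl32, was at 15.8, 18.4 and 18.0 in control and 19.8, 19.3 and 22.7 in cKO libraries, a log2 fold change of 0.23 (SE 0.09, adjusted p = 0.365). Rpl32 averaged 2496 FPKM, and how reads were divided between these rows is not known, so the value of Rpl32l is uncertain. Rps12 was at 3102, 2927 and 3285 in control and 3360.5, 3665 and 3391 in cKO libraries, a log2 fold change of 0.16 (SE 0.07, adjusted p = 0.393). Rps9, the uS4 protein near the mRNA entry, was at 1836, 1973 and 1979.9 in control and 2005, 2329 and 2029.7 in cKO libraries (log2 fold change 0.13, SE 0.08, adjusted p = 0.495), and without cKO 2 the log2 fold change was 0.065.

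**Figure D5:**
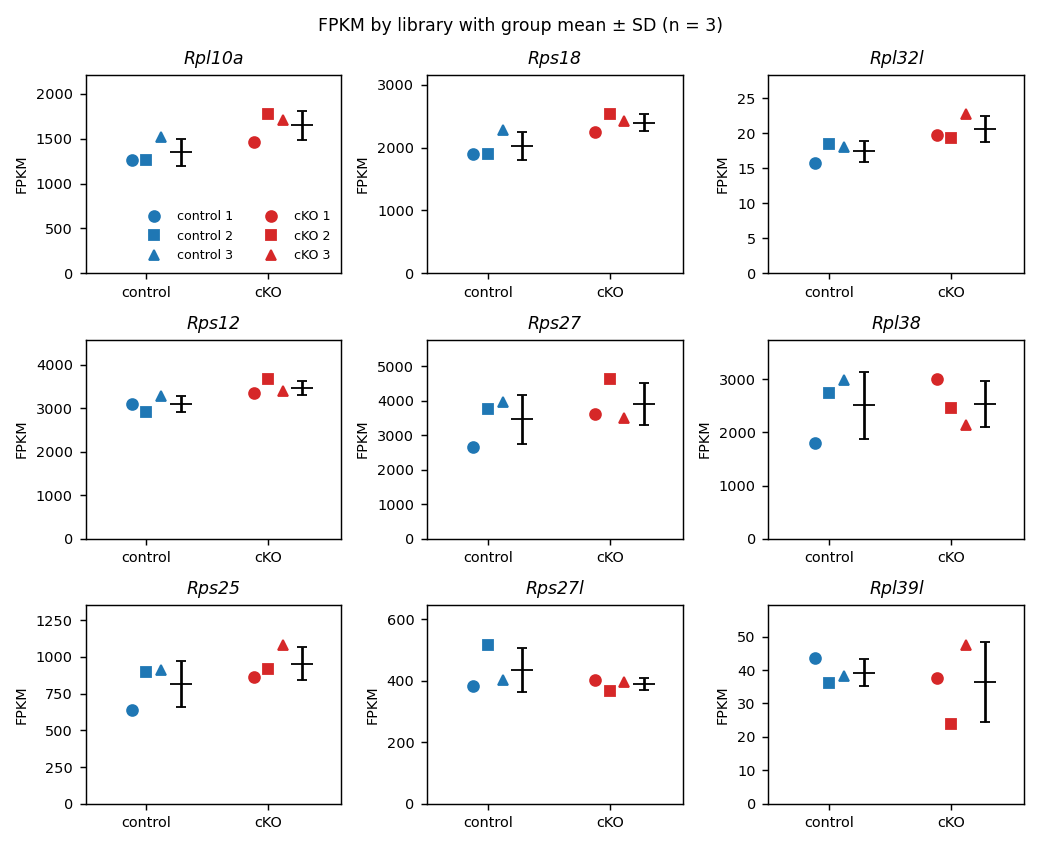
FPKM of 9 ribosomal protein genes in each library (axes from 0) with the group mean and SD (n = 3). Of the genes drawn, Rpl32l and Rps12 have groups that do not overlap, Rpl10a and Rps18 have control 3 within the cKO range, Rps27, Rpl38 and Rps25 have control 1 as the lowest library, and Rps27l and Rpl39l have a lower mean in cKO libraries.

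The genes were then taken by their position in the ribosome, and none of those below had an adjusted p under 0.05. The stalk of the large subunit, which recruits the elongation factors, is made of Rplp0, Rplp1 and Rplp2 with Rpl12 at its base, and their median log2 fold change was 0.11. Rplp0, often used as a reference gene, was at 1938, 1923 and 2114 FPKM in control and 2000.2, 2405 and 2084 in cKO libraries (log2 fold change 0.12, SE 0.09). Rpl5 and Rpl11 bind 5S rRNA and, when free, the p53 regulator MDM2. Rpl5 was at 786, 787 and 856 in control and 821, 945 and 884 in cKO libraries, and Rpl11 at 586, 555 and 629 in control and 584, 651 and 630.4 in cKO libraries, and both overlapped between groups.

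Among the genes close to the peptidyl transferase centre and tRNA sites (Rpl3, Rpl8, Rpl10 and Rpl36a) the median log2 fold change was 0.11, from 0.15 for Rpl10 (0.066 without cKO 2), which completes the 60S subunit late in its maturation, to close to 0 for Rpl8. Around the exit tunnel, through which the new protein leaves, 7 of 8 genes had a log2 fold change above 0, with a median of 0.13. Of all 79 tested ribosomal protein genes 67 were above 0, as were 44.2% of all tested rows. Rpl39, which lines the tunnel, was at 1703, 1795 and 1880.5 FPKM in control and 1859.9, 2089.7 and 2097 in cKO libraries, a log2 fold change of 0.17 (SE 0.08, adjusted p = 0.398), with cKO 1 just below control 3. Rpl17 had one of 0.17 (SE 0.11), or 0.078 without cKO 2, and Rpl4 one of 0.15 (SE 0.10), and Rpl31 was flat, between 682 and 748 FPKM over all 6 libraries.

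In the small subunit, 9 genes of the decoding centre and mRNA path had a median log2 fold change of 0.07. All 9 were above 0, as were 67 of all 79 tested ribosomal protein genes and 44.2% of all tested rows. Rps2, at the mRNA entry, varied least of these 9, between 3177 and 3402 FPKM over all 6 libraries (log2 fold change 0.01, SE 0.06). Rps14 was at 2483, 2714 and 3058 in control and 2699.5, 3433 and 2654 in cKO libraries, with cKO 2 the highest and control 1 the lowest. In the beak, Rps12 was higher in each cKO library than in any control, while Rps10 (log2 fold change 0.06, SE 0.09) and Rps27a (0.00, SE 0.10), the latter made as a fusion with ubiquitin, overlapped. Rps4x had a log2 fold change of 0.18 (SE 0.10, adjusted p = 0.467), which was 0.10 without control 1 and 0.11 without cKO 2. Rps6 had one of -0.03 (SE 0.09). Of 17 genes mutated in Diamond-Blackfan anemia, a disorder of red cell production, 14 had a log2 fold change above 0, none had an unadjusted p under 0.05, and the median was 0.05, while 44.2% of all tested rows were above 0 and 13.1% had such a p. The gene found first in that disorder, Rps19, was at 1904, 2068 and 2094 in control and 1824, 2159 and 1860.3 in cKO libraries.

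Of the paralogs, Rpl32l was described above, and Rpl39l and Rps27l were the lowest in the order of fold changes. Rps27l, a p53 target whose coding sequence is 76.1% identical to that of Rps27, was at 384, 517 and 404 FPKM in control and 404, 368 and 396 in cKO libraries, a log2 fold change of -0.15 (SE 0.12, adjusted p = 0.602). Control 2 stood above the other 5 libraries, and without it the log2 fold change was -0.02. Rpl39l, 85.3% identical to Rpl39, was at 43.6, 36.0 and 38.1 in control and 37.7, 23.8 and 47.6 in cKO libraries, a log2 fold change of -0.16 (SE 0.23, adjusted p = 0.784). Its lowest library was cKO 2, in which most ribosomal protein genes were highest, and without cKO 2 its log2 fold change was 0.11. Neither paralog had a near-identical copy at the limits used above.

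Genes of the cytosolic ribosome with other symbols were examined beside these. Rps3a1 was at 1707, 1569.7 and 1957 FPKM in control and 1679, 2068 and 1828 in cKO libraries (log2 fold change 0.09, SE 0.11). Rack1, a scaffold protein on the small subunit, was at 1377, 1366 and 1396 in control and 1381, 1634 and 1545 in cKO libraries (log2 fold change 0.14, SE 0.08), and Fau had a log2 fold change of 0.13 (SE 0.09). The paralogs Rpl22l1 and Rpl36al lay at 659 and 514 FPKM on average. Rpl22l1 was thus above Rpl22, which averaged 107 FPKM, in every library, with 604 FPKM the lowest value of the first and 121 the highest of the second. Rpl7l1 was at 37.4, 39.2 and 37.1 in control and 33.1, 36.6 and 35.8 in cKO libraries (log2 fold change -0.11, SE 0.07, adjusted p = 0.507).

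The other groups of genes around the ribosome were compared in the same fit, and none of their genes had an adjusted p under 0.05. Of 18 elongation factors and other mRNAs known or thought to carry a TOP tract, 15 had a log2 fold change above 0, against 44.2% of all tested rows. The median was 0.13, and 2 had an unadjusted p under 0.05, both higher in cKO libraries. The share at that p was 11.1%, against 13.1% of all tested rows. Eef1a1, which brings tRNAs to the ribosome, was at 6481, 6358 and 6693 FPKM in control and 6667, 7843 and 7057 in cKO libraries (log2 fold change 0.14, SE 0.08). Pabpc1, the poly(A)-binding protein, was at 341, 358 and 368 in control and 396, 416 and 409 in cKO libraries, a log2 fold change of 0.19 (SE 0.06, adjusted p = 0.312), and its groups did not overlap. The other was Vim, the intermediate filament gene (log2 fold change 0.23, SE 0.09, adjusted p = 0.360).

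Of 40 ribosome biogenesis genes, 17 (42.5%, against 44.2% of all tested rows) had a log2 fold change above 0 and the median was -0.01. The 2 with an unadjusted p under 0.05 (5.0%, against 13.1% of all tested rows) were both lower in cKO libraries. Bop1, of the complex that processes the large subunit RNA, was at 23.7, 26.0 and 24.2 in control and 22.1, 21.2 and 20.8 in cKO libraries (log2 fold change -0.20, SE 0.06), and Bysl, which acts in small subunit maturation, at 9.76, 11.1 and 9.53 in control and 8.86, 8.65 and 8.36 in cKO libraries (-0.21, SE 0.07). Of 78 mitochondrial ribosomal protein genes, 25 (32.1%, again against 44.2%) had a log2 fold change above 0 and the median was -0.03. At an unadjusted p under 0.05, 2 were higher and 4 lower (7.69%, again against 13.1%).

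Among 11 regulators of ribosomal protein mRNAs the median log2 fold change was 0.02. At an unadjusted p under 0.05, 1 was higher and 1 lower in cKO libraries (18.2%, against 13.1% of all tested rows). The groups did not overlap for 3 of the 11, against 18.3% of all tested rows. Eif4ebp1 encodes the repressor of cap-dependent translation that mTORC1 inactivates. It was at 129, 122 and 129.8 FPKM in control and 159, 161 and 185 in cKO libraries, a log2 fold change of 0.40 (SE 0.08, unadjusted p = 0.00144 and adjusted p = 0.312 in limma), and every cKO library was above every control. Its relative Eif4ebp2 was at 24.0, 25.6 and 23.6 in control and 22.06, 20.97 and 22.27 in cKO libraries, the opposite direction (log2 fold change -0.16, SE 0.06, adjusted p = 0.366). Larp1 (log2 fold change 0.02), Mtor (-0.11) and Myc (0.04), an activator of ribosomal protein genes, overlapped between groups. Of the S6 kinase genes, Rps6kb1 had a log2 fold change of -0.24 (SE 0.12, adjusted p = 0.431) and its groups overlapped. Rps6kb2 had one of -0.18 (SE 0.08, adjusted p = 0.409), and every cKO library was below every control. Markers of the other cell types gave medians of 0.30 for macrophages (8 tested), 0.45 for cartilage (5 tested, 3 higher at an unadjusted p under 0.05), 0.35 for adipocytes (5 tested, 2 higher, against 5.37% of all tested rows) and 0.06 for muscle (6 tested), with 1 endothelial marker tested (-0.12) and no erythroid one. For epithelium, Krt18 and Krt8 had log2 fold changes of 2.48 and 2.31, each with an adjusted p of 0.312 in limma. Krt18 was at 0.23, 1.41 and 6.24 FPKM in control and 21.9, 17.0 and 8.10 in cKO libraries. Krt8 was at 0.14, 1.27 and 5.81 in control and 18.1, 15.6 and 5.74 in cKO libraries, so its groups overlapped. No epithelial median is given, because Epcam entered the fit only through the cKO libraries. Some defining markers on these lists did not pass the filter. The adipocyte genes Adipoq, Plin1 and Cidec were at most 0.39, 0.10 and 0.07 FPKM in any library. Matn1, a cartilage gene, was at most 0.03 FPKM. Whether cells of these types were present, and their part in the ribosomal protein values, was not tested.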

How the data were processed

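Poly(A) RNA of 6 libraries was sequenced. The authors mapped the reads with HISAT2 (the submitters' processing notes name GRCm38) and deposited a table of FPKM values with 2 decimals, a row for each gene symbol. The annotation and the program that computed FPKM are not given in the sources used here.

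The ribosomal protein genes and all gene lists were chosen with earlier results of these data known. log2(FPKM + 1) was compared by a linear model with limma 3.58.1 (R 4.3.3; lmFit, then eBayes; two-sided). Rows with at least 1 FPKM in at least 3 libraries were kept, 11590 of 17001, and p-values were adjusted over them by Benjamini-Hochberg. Fold changes on this scale understate those of low genes. The steps were tested on simulated data. Genes named were Nell2, the 10 ribosomal protein genes with the smallest p, the 5 highest and 5 lowest, paralogs and genes of the lists by role. Others (Rpl34, Rpl34-ps1, Rpl38, Rps25, Rpl22, Rps20, Rps3a1, Rpl7a, Rpl21, Mcub and Il11ra2) were chosen after their values were seen. Coding sequences of GENCODE M21 were aligned with BLAST, and start windows come from RefSeq. Alternatives changed the pseudocount, filter, variance trend and scaling, added the replicate block or Ddx3y, and left out libraries or genes with a listed copy. The result for 1 gene of the lists is not reported here.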

Additional observations from a re-analysis of the deposited data

How the results depend on the processing

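No ribosomal protein gene had an adjusted p under 0.05 in limma under any alternative tried. The number of all tested rows that did was 0 in the reported fit, 0 to 324 with single libraries left out (324 without cKO replicate 1 and 2 without control replicate 3) and 4 without both libraries numbered 3, an alternative added after seeing the data. The number of ribosomal protein genes with an unadjusted p under 0.05 was 3 as reported, 5 without a filter, 5 after scaling by the median ratio, 0 with Ddx3y as a covariate (over all rows 1521, 1997, 1485 and 1213) and 0 to 7 with single libraries left out (over all tested rows 852 to 2461, with the 7 and the 2461 both without cKO replicate 1), and the 3 genes with the smallest p kept their direction throughout. Scaling to the same FPKM sum left 60 and scaling by the median ratio 71 of 79 genes with a log2 fold change above 0, and 40.4% and 50.5% of all tested rows. Deviations from the group mean of same-numbered libraries had correlations of 0.03, -0.17 and 0.21 for numbers 1, 2 and 3. The reported fit did not pair the libraries by number. Control 3 and cKO 3 did share their values of Rpl34, Mcub and Il11ra2, and whether they had an origin in common was not tested. With the replicate number as a block, 0 ribosomal protein genes and 0 rows had an adjusted p under 0.05 in limma. At an unadjusted p under 0.05 there were 3 ribosomal protein genes.

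Among 24 named genes 340 fits kept their direction and side of the threshold and 20 changed sign. The log2 fold change of Rpl34 was 0.55 with Ddx3y as a covariate, 0.33 without control replicate 1, 0.34 without control replicate 2, 0.82 without cKO replicate 3 and 0.10 without both libraries numbered 3, and single libraries left out gave -0.74 to 0.82. That of Rpl34-ps1 was -0.19 with Ddx3y, and -0.28 to 0.39 over the left-out libraries, with -0.18 and -0.15 without control replicates 1 and 2, and 0.088 without both libraries numbered 3. That of Rpl38 was -0.047 with Ddx3y and -0.19 to 0.18 over the left-out libraries, with -0.10 without cKO replicate 1, and 0.29 without both libraries numbered 3. That of Rpl39l was 0.11 without cKO replicate 2 and -0.37 without cKO replicate 3, the highest and lowest values over the single libraries left out, and -0.39 without both libraries numbered 3. That of Rpl41 was -0.0099 after scaling to the same FPKM sum and -0.047 to 0.060 over the left-out libraries, with -0.020 and -0.016 without control replicates 1 and 2, and 0.10 without both libraries numbered 3. That of Rps6 was -0.094 to 0.028 over the left-out libraries, 0.027 without cKO replicate 3 and 0.087 without both libraries numbered 3. The cause was not tested. The read depth is unknown, so the precision of the low rows Rps6 and Rpl32l cannot be given from counts.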

Other observations

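A few other genes were split between the libraries numbered 3 and the other 4 in the way Rpl34 was, whatever their label. They were chosen after their values were seen. Mcub, a subunit of the mitochondrial calcium channel, lies on chromosome 3, with its lowest coordinate 811867 bases below that of Rpl34 in GRCm38.p6. It was at 13.9, 14.2 and 5.29 FPKM in control 1, 2 and 3 and 16.1, 13.9 and 8.15 in cKO 1, 2 and 3. Il11ra2, a receptor gene on chromosome 4, was at 3.03, 4.54 and 0.05 in control and 4.81, 2.61 and 0.03 in cKO libraries. The Y-linked genes did not follow this split, since Ddx3y was at 17.3 FPKM in control 3, 17.3 in cKO 1 and 15.7 in cKO 3 and at most 0.06 in the other 3 libraries.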
